A study of Mus musculus with 4 samples.

Results

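In a pooled single-cell RNA matrix of mouse submandibular and sublingual glands, 318 of 15707 barcodes were selected as fibroblasts on matrix genes. In 261 of them type I and III collagen together reached 3 UMIs. In the other 57 Dcn stood nearly alone among the selecting genes, mostly with basal epithelial keratins, and some of the 261 also held epithelial or myeloid markers. The 318 are 2.02% of barcodes (exact binomial 95% interval 1.81 to 2.26). They were chosen by at least 10 UMIs of Col1a1, Col1a2, Col3a1 and Dcn together, with Mucl2 under 30% of the barcode's UMIs, at most 1 UMI of Cdh5 and Kdr together, and 0 UMIs of Ptprc. UMIs count captured RNA molecules by the random tag each one received. The 4 selecting genes encode collagen chains and the proteoglycan decorin. Mucl2 is a secretory product of the acinar cells, Cdh5 and Kdr mark blood vessel lining, and Ptprc marks white blood cells. Of the 361 barcodes that reached 10 UMIs of the 4 genes, 24 were lost to the limit on Mucl2, 3 to that on Cdh5 and Kdr and 16 to that on Ptprc.

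The study asked how these glands keep oral microbes in balance through antimicrobial proteins. Its 4 samples form 1 group: both glands of WT female C57BL/6N mice, 6 to 8 weeks old, labelled as physiological status, with no treatment named. Glands were dissociated with collagenases, hyaluronidase, dispase and pancreatin, and 3′ ends of transcripts were counted in droplets. The labels name 2 mice and the study's methods 3, and all barcodes carry 1 suffix, so they were treated as 1 pooled sample and no mouse, gland or sample was compared with another. Barcodes of 1 sample are not replicates, so no test was run, and intervals cover counting error only. The members held 1116142 UMIs, with a median of 2215.5 per barcode (1380 to 24263), a median of 1094 genes and a median mitochondrial share of 2.92%. In the whole matrix the medians were 2608 UMIs and 689 genes.

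Fibroblasts build and maintain the connective tissue of a gland: they secrete collagens, proteoglycans, elastic fibre proteins and the enzymes that assemble or cut them. In salivary glands they lie around ducts, acini and vessels, and send growth factors and chemokines to epithelium and immune cells. In many organs, fibroblasts of vessel sheaths (marked by Pi16) and of the parenchyma (marked by Col15a1) are told apart by their genes.

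Type I and III collagen (Col1a1, Col1a2 and Col3a1), 3 of the 4 selecting genes, reached 3 UMIs in 261 members, 82.1% (77.4 to 86.1). The selection bears on that share, so it is a description. In the other 57, or 17.9%, they stayed at 2 UMIs or fewer, with 53 at 0, so Dcn alone had carried these barcodes over the threshold. The split at 3 UMIs was chosen after seeing the data. The 57 are called Dcn-only here and the 261 collagen-bearing.

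Genes that played no part in the selection also differed between the 2 kinds of member. Pdgfra, the receptor used to recognise fibroblasts, had a UMI in 169 of 261 collagen-bearing members (64.8%, 58.6 to 70.5) and in 0 of 57 Dcn-only members, with an upper bound of 6.27%. The basal epithelial keratins Krt5 and Krt14 reached 3 UMIs in 46 of 57 Dcn-only members and in 2 of 261 collagen-bearing ones. Among 725 lymphoid barcodes, which should lack all of these genes, Pdgfra had a UMI in 0.138% (0.00349 to 0.766) and Krt5 with Krt14 reached 3 UMIs in 1.

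Dcn-only members were deeper, with medians of 6757 UMIs and 2247 genes against 2110 and 1048, so their 57 barcodes held 40.9% of all member UMIs. Thinned to 1000 UMIs per barcode, a depth that every barcode reached, Pdgfra was found in 40.2% of collagen-bearing members, 0 Dcn-only members and 0.138% of lymphoid barcodes, whose median depth was 1978 UMIs. Thinned Krt14 was found in 52.6% of Dcn-only and 0.383% of collagen-bearing members, and in 0.276% of lymphoid barcodes.

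The genes that led the Dcn-only members over the collagen-bearing ones, by ratio among genes with at least 50 UMIs in them, were Dapl1, Moxd1, Ly6d, Esp18, Ptn, Ucma, Mia, Krt14, Sfn and Edn1. Krt14 stood at 11.8 (10.9 to 12.9) UMIs per 10000 UMIs in Dcn-only members, from 540 UMIs, and at 0.212 (0.116 to 0.356) in collagen-bearing members, from 14. All levels that follow are UMIs summed over a group per 10000 UMIs of that group, with exact Poisson 95% intervals. Counts of 3′ ends need no correction for transcript length. For the whole list of 7 basal and myoepithelial markers the level was 23.0 (21.7 to 24.5) in Dcn-only members, with 6 of 7 detected, Krt14 highest and Oxtr at 0. In collagen-bearing members it was 0.727 (0.536 to 0.964), with 5 of 7 detected, Krt17 highest and Oxtr and Cnn1 at 0. The 10 luminal epithelial markers summed to 77.0 (74.5 to 79.6) in Dcn-only members, led by Krt18 and with Krt19 at 0, against 8.83 (8.13 to 9.58) in collagen-bearing and 10.5 in lymphoid barcodes. The luminal UMIs of the collagen-bearing members were uneven. Of their 583 UMIs, 425 lay in 21 members of subgroup 5 (subgroups are described below), at 36.3, while those of subgroups 1, 2, 4 and 6 stood between 1.08 and 2.66. At least 3 luminal UMIs were found in 27 of 261 (10.3%, 6.93 to 14.7). Myeloid markers were concentrated too, with 457 of 526 UMIs in 6 members of subgroup 3. The 57 are described by their leading genes and given no other name. Counts of called genes are given for all 318 members and for the 261, and values of the 261 are added where they change a call or a direction stated in the text.

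**Figure D1:**
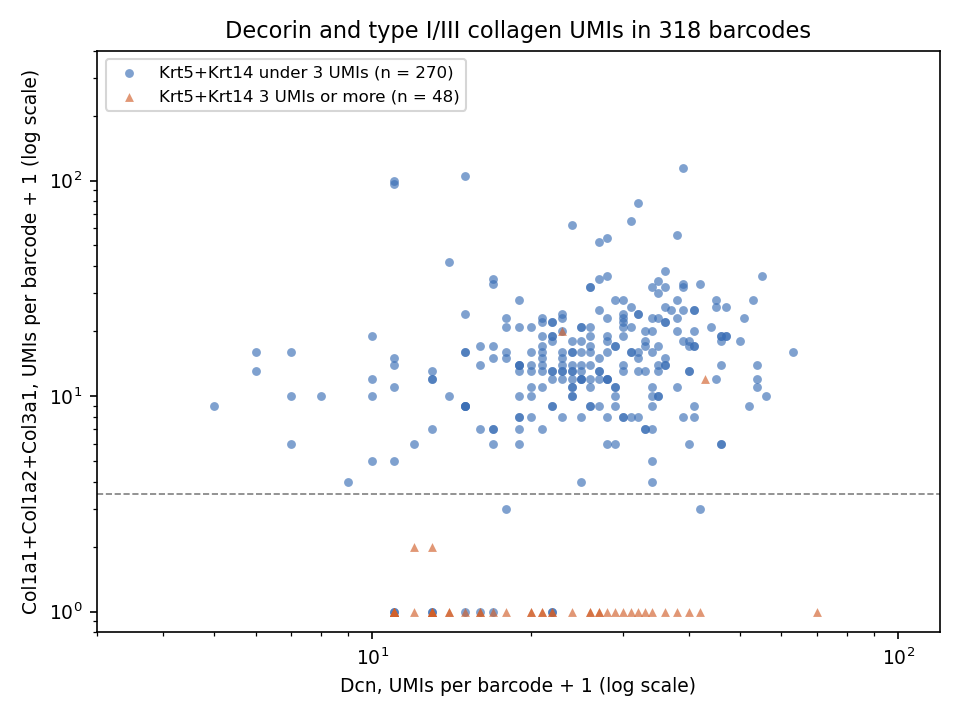
Dcn UMIs (horizontal) against the summed UMIs of Col1a1, Col1a2 and Col3a1 (vertical) in each of 318 barcodes, both plus 1 on log axes, with triangles for the 48 barcodes that have at least 3 UMIs of Krt5 and Krt14 and circles for the rest. The dashed line parts the 261 barcodes with at least 3 collagen UMIs from the 57 below it, where 46 of the 48 triangles lie.

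The values at the threshold are a description. Just inside it, 13 members had 10 or 11 UMIs of the 4 genes, and just outside it 22 barcodes within the other limits had 8 or 9. Of the 13, 2 had 3 or more collagen UMIs, 1 had Pdgfra and 9 had at least 3 UMIs of Krt5 and Krt14. Of the 22, 3 had 3 or more collagen UMIs, 0 had Pdgfra and 13 had the keratins. Dcn stood at 17.5 (14.6 to 20.9) inside and 10.1 (8.64 to 11.8) outside. Barcodes on either side of the limit were thus mostly of the Dcn-only kind. From the other side, 198 of the 220 barcodes of the matrix with at least 10 UMIs of type I and III collagen were members.

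For comparison, 241 endothelial and 99 mural (pericyte and smooth muscle) barcodes were selected on their own markers. The endothelial ones had at most 2 UMIs of the 4 genes and the mural ones under 10. The 15052 other barcodes were all non-members with at most 2 UMIs of the 4 genes. They thus include the endothelial and lymphoid barcodes and the mural ones within that limit. A gene was called higher when its summed level was at least 4-fold that of the comparator with a lower bound above 1, among genes with at least 10 UMIs in both groups together. This is a rule of size, not a test. For each list below, calls are given out of the genes that reached those 10 UMIs, first against endothelial and then against mural barcodes. Over all genes, 858 of 10482 (8.19%) were called in members against endothelial barcodes and 527 of 9576 (5.50%) against mural barcodes. For the collagen-bearing members the counts were 830 of 9578 (8.67%) and 576 of 8050 (7.16%), of which 615 and 390 were shared with those of all members. Median log2 ratios over all genes were 0.29 and 0.35 for all members, and 0.13 and 0.28 for the collagen-bearing ones.

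Against all other barcodes, 7087 of 15012 genes (47.2%) were called for all members and 5719 of 14980 (38.2%) for the collagen-bearing ones, with medians of 2.03 and 1.77. With the abundant secretory products of the glands left out of the totals, 1147 genes were called, and with free RNA taken away, 1884. That comparison was used to rank genes, and the few folds over all other barcodes given below were computed with neither change. Where a comparator had 0 UMIs, a floor of 3 UMIs over the group was used and the ratio is a lower bound.

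Fibrillar collagens, the rope-forming collagens of connective tissue, were led by Col1a2 at 18.4 (17.6 to 19.2) in all members and 31.0 (29.7 to 32.4) in the collagen-bearing ones. Col3a1, which forms thin fibrils beside type I collagen, stood at 16.7 (16.0 to 17.5) and 28.3 (27.0 to 29.6). Col1a1, the partner chain of Col1a2, was lower at 5.41 (4.99 to 5.86) and 9.14 (8.42 to 9.90). These 3 genes took part in the selection, so their levels are a description. They lie on GRCm38 at chr6:4504814-4541544, chr1:45311538-45349706 and chr11:94936224-94953042, under the identifiers ENSMUSG00000029661, ENSMUSG00000026043 and ENSMUSG00000001506. Per barcode, a collagen-bearing member had a median of 6 UMIs of Col1a2 (0 to 45), 6 of Col3a1 (0 to 56) and 2 of Col1a1 (0 to 15).

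Type V collagen, which nucleates type I fibrils, was not used in the selection and was present with all 3 chains. Col5a2 stood at 2.66 (2.37 to 2.98) in all members, 4.47 in the collagen-bearing, 0.118 in endothelial and 0.229 in mural barcodes. Col5a3 was at 2.60 (2.31 to 2.92), 220.2-fold (39.2 to 8725) over endothelial and 68.1-fold (12.1 to 2698) over mural barcodes, where it had 1 UMI each. Col5a1 was at 1.12 (0.932 to 1.33). All 7 fibrillar collagen genes had a UMI. Against endothelial barcodes 6 of 7 of the list's genes were called, and against mural barcodes 6 of 6, at median log2 ratios of 6.70 and 4.77. The collagen-bearing members alone gave 6 of 6 and 6 of 6. Endothelial barcodes were limited to at most 2 UMIs of the 4 selecting genes and mural barcodes to under 10. The selection thus bore on the calls of the 3 selecting genes in this list, which are a description. Without these 3, 3 of 4 genes were called against endothelial and 3 of 3 against mural barcodes, at median log2 ratios of 4.74 and 3.87, and 3 of 3 and 3 of 3 in the collagen-bearing members.

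The promoters of Col1a2 and Col3a1 are shown because these genes carried most of the fibrillar collagen UMIs and were both highest in subgroup 6 of the members, described below. They are RefSeq sequences of build GRCm38.p6, from 250 bases before to 50 after the gene's start, at chr6:4505368-4505667 and chr1:45311288-45311587, both on the plus strand. The RefSeq start of Col1a2 lies downstream of the start of the GENCODE gene given above, so its window falls inside that gene. Of the 5 fibroblast markers, 3 were matched in the promoter table: Col1a2, Col3a1 and Pdgfra. Col1a1 and Dcn were not matched. Capitals mark matches, on either strand, to the TATA box (letters TATAAA), the CCAAT box (letters CCAAT), the GC box (letters GGGCGG) and the AP-1 motif (letters TGANTCA), and no matches overlapped. Col1a2 held 2 CCAAT boxes, 1 on each strand, and 2 GC boxes, while Col3a1 held 1 TATA box. Over all 32851 promoters of this length the shares with a match were 13.6% for the TATA box, 37.4% for the CCAAT box, 35.7% for the GC box and 7.81% for the AP-1 motif. A match describes letters and is no sign that a factor binds.
Col1a2 promoter: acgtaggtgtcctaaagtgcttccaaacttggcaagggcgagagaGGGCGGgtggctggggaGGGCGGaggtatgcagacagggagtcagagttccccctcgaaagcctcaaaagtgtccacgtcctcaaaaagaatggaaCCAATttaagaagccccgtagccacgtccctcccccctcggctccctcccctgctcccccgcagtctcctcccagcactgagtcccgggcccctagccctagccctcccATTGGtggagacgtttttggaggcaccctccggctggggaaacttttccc
Col3a1 promoter: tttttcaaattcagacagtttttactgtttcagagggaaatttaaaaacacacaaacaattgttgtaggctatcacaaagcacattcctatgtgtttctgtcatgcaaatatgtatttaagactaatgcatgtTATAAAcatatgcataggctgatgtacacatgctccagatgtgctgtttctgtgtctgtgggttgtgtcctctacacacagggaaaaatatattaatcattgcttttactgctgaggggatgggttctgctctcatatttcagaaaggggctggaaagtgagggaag

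Col1a2 was also measured by qPCR in the study, so its primers are shown. Both matched 2 of 8 Col1a2 transcripts of GENCODE M21, the forward primer in exon 31 and the reverse primer in exon 32 of 52, at chr6:4527104-4527122 and chr6:4528367-4528384 on GRCm38.
Col1a2 forward primer: ctattggaagccgaggtcc
Col1a2 reverse primer: cagcacccctctctcctg

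Other collagens were led by Col15a1, a basement-membrane-zone collagen, at 7.58 (7.08 to 8.11) in all members and 12.8 (12.0 to 13.7) in the collagen-bearing ones. It was 4.01-fold (3.39 to 4.78) over endothelial barcodes and at least 66.2-fold over mural barcodes, where it had 0 UMIs. The 3 main chains of type VI collagen, which forms beaded filaments around cells, moved alike: Col6a1 was at 5.85 (5.41 to 6.32), Col6a2 at 3.52 (3.18 to 3.89) and Col6a3 at 3.43 (3.10 to 3.79). Against endothelial barcodes they were 26.1-fold (16.6 to 43.6), 33.1-fold (17.3 to 73.0) and 58.2-fold (24.7 to 180.1) higher. Col4a1 and Col4a2, the basement membrane chains that endothelium also makes, were not called over endothelial barcodes: they stood at 5.78 (5.34 to 6.24) and 3.49 (3.16 to 3.86), against 6.92 and 5.65. In the collagen-bearing members they were at 9.36 (8.64 to 10.1) and 5.68 (5.12 to 6.29), no longer below endothelium, and Col4a1 was called over mural barcodes there. All 17 genes of this list had a UMI. The list had 12 of 17 genes called against endothelial and 7 of 15 against mural barcodes, and its median log2 ratios were 2.77 and 2.00. Without the Dcn-only members 12 of 16 and 8 of 14 were called.

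Small leucine-rich proteoglycans, which coat collagen fibrils and set their width, summed to 102 (100 to 104) over 9 genes in all members and 154 (151 to 157) in the collagen-bearing ones. Without Dcn the sums were 29.1 (28.1 to 30.1) and 48.6 (46.9 to 50.3). Dcn, a selecting gene at chr10:97479609-97518143, made most of it, with 72.7 (71.2 to 74.3) in all, 106 (103 to 108) in collagen-bearing and 25.04 (23.6 to 26.5) in Dcn-only members. Lum, which encodes lumican and was not used in the selection, stood at 12.6 (11.9 to 13.2) and 21.2 (20.1 to 22.3). It had 0 UMIs in endothelial and mural barcodes, so it was at least 355-fold and at least 109.7-fold higher. A Lum UMI was found in 98.1% (95.6 to 99.4) of collagen-bearing and 1.75% (0.0444 to 9.39) of Dcn-only members, and in 0.276% (0.0334 to 0.993) of lymphoid barcodes. At 1000 UMIs per barcode these shares were 85.8%, 1.75% and 0.138%. The other members of the family were lower. Biglycan (Bgn) was at 9.91 (9.33 to 10.5) and osteoglycin (Ogn) at 3.56 (3.22 to 3.92). Prelp, which anchors basement membrane, was at 1.93 (1.68 to 2.20) and podocan (Podn) at 0.788 (0.632 to 0.971). All 9 had a UMI. Called genes numbered 6 of 9 over endothelial and 6 of 9 over mural barcodes, with median log2 ratios of 5.32 and 2.66. For the collagen-bearing members they numbered 7 of 8 and 6 of 8. Dcn is among the called genes, and without it 5 of 8 and 5 of 8 were called in all members.

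Elastic fibre and microfibril genes had a sum of 16.4 (15.7 to 17.2) in all and 26.1 (24.9 to 27.4) in collagen-bearing members. The most abundant was Ltbp4, a binding protein of latent TGF-beta, at 2.52 (2.23 to 2.83), which was below its level of 4.64 in endothelial barcodes, as it was in the collagen-bearing members at 3.91 (3.45 to 4.42). Fbln1 and Efemp1, both of the fibulin family, stood at 2.00 (1.74 to 2.28) and 1.94 (1.69 to 2.22) and had 0 UMIs in endothelial barcodes (at least 56.4-fold and at least 54.9-fold). Mfap5, a microfibril protein, was at 1.49 (1.27 to 1.73) with 0 UMIs in both comparators. Elastin itself (Eln) was at 1.42 (1.21 to 1.66), 3.35-fold (2.32 to 4.96) over endothelial barcodes and not called. In the collagen-bearing members it was at 2.30 (1.95 to 2.70), 5.42-fold (3.75 to 8.03) higher and called. Fibrillin (Fbn1) was at 1.09 (0.908 to 1.31) in all members and 1.83 (1.52 to 2.19) in the collagen-bearing ones. All 16 genes had a UMI. In this list 8 of 16 genes were called over endothelial and 6 of 16 over mural barcodes, and 11 of 15 and 9 of 15 in the collagen-bearing members. Median log2 ratios over all members stood at 2.09 and 1.70.

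Matrix glycoproteins summed to 44.2 (43.0 to 45.4) in all and 67.7 (65.7 to 69.7) in collagen-bearing members. Sparc, a collagen-binding protein made by many stromal cells, stood at 12.9 (12.3 to 13.6) against 12.3 in endothelial barcodes, or 1.05-fold (0.973 to 1.14) the endothelial level. In the collagen-bearing members it was higher, at 20.9 (19.8 to 22.0), or 1.70-fold (1.57 to 1.84) over endothelial barcodes. Smoc2, a calcium-binding matrix protein, was at 6.52 (6.06 to 7.01), and it was present in both kinds of member, with 7.80 in collagen-bearing and 4.67 in Dcn-only ones. Some genes of the list belong to the basement membrane. Its proteoglycan perlecan (Hspg2) stood at 4.19 (3.82 to 4.59) and its linker nidogen (Nid1) at 2.85 (2.54 to 3.18). The laminin chains Lama2 and Lamb1 were at 2.62 (2.32 to 2.93) and 2.47 (2.19 to 2.78). Lama2 was 44.3-fold (18.8 to 138) and 34.3-fold (9.40 to 284) over endothelial and mural barcodes. Fibronectin (Fn1) was low, at 0.179 (0.109 to 0.277). Of 27 genes, 26 had a UMI and Thbs4 was at 0. As for calls, 13 of 22 genes passed against endothelial and 10 of 23 against mural barcodes, where the median log2 ratios were 2.18 and 1.68. Among collagen-bearing members 16 of 22 and 11 of 21 passed.

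Genes that fold, cut and cross-link collagen summed to 27.8 (26.8 to 28.8) in all and 41.7 (40.1 to 43.3) in collagen-bearing members. Serpinh1, the collagen chaperone HSP47, led at 7.88 (7.36 to 8.41) and 12.1 (11.3 to 13.0), and was 2.66-fold (2.31 to 3.07) over endothelial barcodes in all members and 4.09-fold (3.54 to 4.73) in the collagen-bearing ones. Pcolce, an enhancer of procollagen cleavage, was at 5.39 (4.97 to 5.84) and 24.1-fold (15.3 to 40.2) higher. The cross-linking enzyme Loxl1 was at 1.07 (0.883 to 1.28), the lysyl hydroxylase Plod1 at 0.851 (0.689 to 1.04) and the isomerase Ppib at 5.11 (4.70 to 5.54). P4hb, a subunit of prolyl hydroxylase, was at 2.45 (2.17 to 2.76). All 20 genes had a UMI. Higher than in endothelial barcodes by the rule were 7 of 19 genes, and than in mural barcodes 6 of 19, with 11 of 19 and 11 of 19 in the collagen-bearing members. The log2 ratios of all members had medians of 1.41 and 1.73.

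Matrix proteases and their inhibitors summed to 41.7 (40.6 to 43.0) in all and 65.8 (63.8 to 67.8) in collagen-bearing members. Serpinf1, the anti-angiogenic factor PEDF, led at 8.81 (8.27 to 9.38) and 14.8 (13.9 to 15.7). It had 2 UMIs in endothelial and 0 in mural barcodes, 373-fold (103 to 3085) and at least 76.9-fold higher. Mmp2, a gelatinase, stood at 3.24 (2.92 to 3.60) with 0 UMIs in both comparators, and the serine protease Htra3 at 4.34 (3.96 to 4.74). Among inhibitors, Timp2 was at 5.71 (5.27 to 6.17) and Timp3 at 3.36 (3.03 to 3.72). Timp3 was lower than in endothelial barcodes, where it stood at 12.0, a ratio of 0.279 (0.247 to 0.314). Of 20 genes, 18 had a UMI, and Mmp27 and Timp4 were at 0. Against endothelial barcodes 13 of 18 of the list's genes were called, and against mural barcodes 9 of 18, at median log2 ratios of 4.13 and 2.00. The collagen-bearing members alone gave 13 of 18 and 10 of 17.

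**Figure D2:**
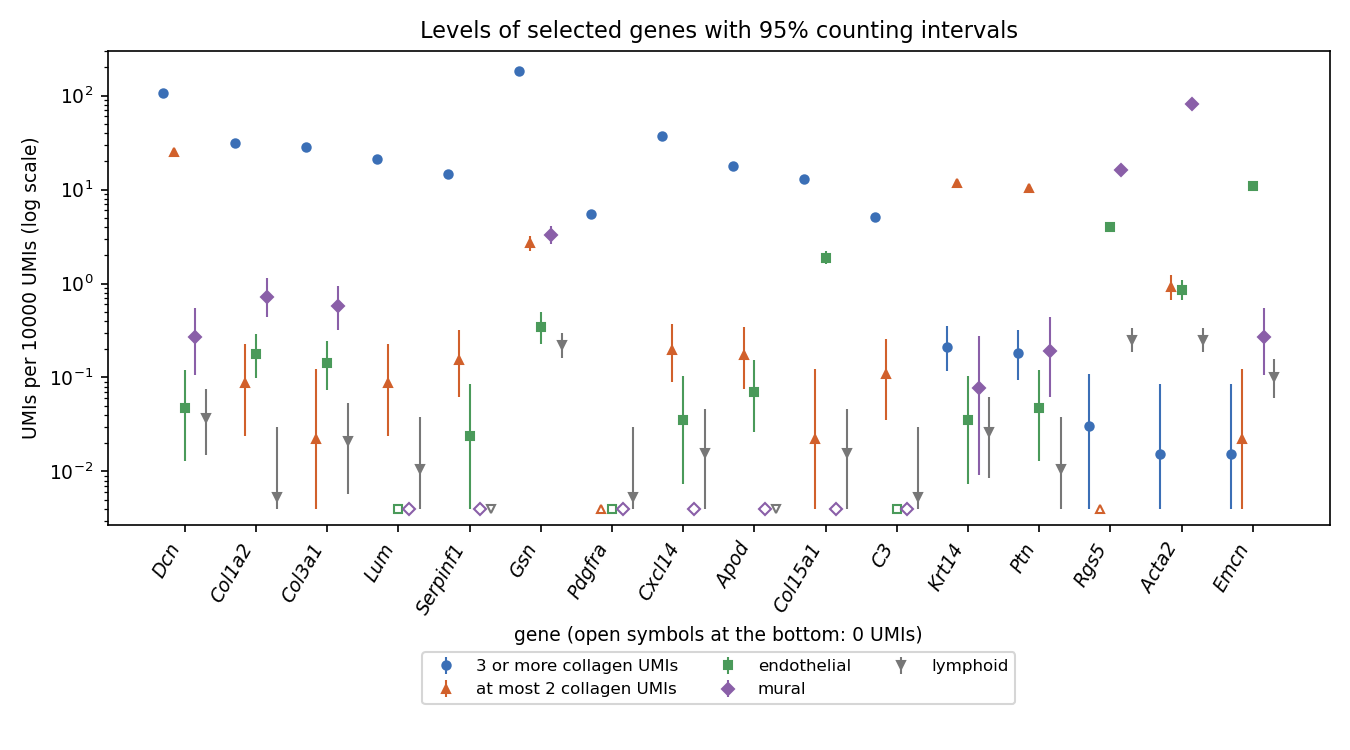
Summed level of 16 genes in UMIs per 10000 (log axis) in the 261 collagen-bearing members, the 57 Dcn-only members and endothelial, mural and lymphoid barcodes, with exact Poisson 95% intervals; open symbols at the bottom mark 0 UMIs. Pdgfra and Lum were at 0 UMIs in endothelial and mural barcodes, and Krt14 and Ptn were highest in Dcn-only members.

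Among growth factor genes, the receptor Pdgfra marks tissue fibroblasts and Pdgfrb marks mural cells and some fibroblasts. Pdgfra, at chr5:75152292-75198215, stood at 3.27 (2.94 to 3.62) in all and 5.53 (4.98 to 6.13) in collagen-bearing members, with 0 UMIs in Dcn-only, endothelial and mural barcodes. It was at least 92.4-fold over endothelial and at least 28.6-fold over mural barcodes. Pdgfrb was at 1.47 (1.19 to 1.79) in the collagen-bearing members, beside 1.83 in mural barcodes. The ligand Pdgfa came mostly from Dcn-only members, 2.13 (1.72 to 2.59) against 0.318 (0.197 to 0.486) in collagen-bearing ones. Pdgfc showed the same split, with 0.417 (0.251 to 0.650) and 0.0606 (0.0165 to 0.155). Its ratio to endothelial barcodes fell from 8.73 in all members to 0 in collagen-bearing members with under 3 UMIs of luminal epithelial markers, a set chosen after seeing the data. All 6 genes of the family had a UMI. The list had 2 of 6 genes called against endothelial and 1 of 6 against mural barcodes, and its median log2 ratios were 1.58 and -1.005. Without the Dcn-only members 2 of 5 and 1 of 6 were called.

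Secreted growth factors of the FGF, HGF, IGF and neurotrophic families divided by kind of member. Ptn, or pleiotrophin, was the most abundant at 4.36 (3.98 to 4.77) in all members, yet it stood at 10.4 (9.50 to 11.4) in Dcn-only and 0.182 (0.0939 to 0.318) in collagen-bearing ones. In the latter its ratio to mural barcodes was 0.953 (0.312 to 3.45), and its calls over endothelial and mural barcodes in all members were lost without the Dcn-only barcodes. Its relative Mdk, or midkine, showed the reverse order, with 3.32 (2.89 to 3.79) in collagen-bearing and 0.548 (0.355 to 0.809) in Dcn-only members. Igf1, a growth hormone target, stood at 3.12 (2.71 to 3.58) in collagen-bearing members. Fgf10, which drives branching of salivary epithelium in development, was at 1.15 (0.957 to 1.36) in all and 1.91 (1.59 to 2.27) in collagen-bearing members, 24.3-fold (9.26 to 90.5) over endothelial barcodes. Fgf7, its relative, had 32 UMIs. Gas6 and Vegfa, at 1.68 (1.44 to 1.93) and 0.493 (0.371 to 0.641), were not called against endothelial barcodes. Of 22 genes, 19 had a UMI, with Fgf9, Gdnf and Bdnf at 0. Called genes numbered 6 of 15 over endothelial and 5 of 14 over mural barcodes, with median log2 ratios of 1.60 and 0.63. For the collagen-bearing members they numbered 5 of 15 and 4 of 14.

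IGF binding proteins, which hold insulin-like growth factors outside the cell, summed to 32.0 (31.0 to 33.1) in all members, below the 41.1 of endothelial barcodes, and to 47.3 (45.7 to 49.0) in the collagen-bearing members, above it. Igfbp7 led in members and endothelial barcodes, at 13.6 (12.9 to 14.3) in all members, 22.7 (21.6 to 23.9) in the collagen-bearing ones and 33.3 in endothelial barcodes. Igfbp4 was 13.9-fold (10.6 to 18.5) over endothelial barcodes, at 9.19 (8.64 to 9.77), and Igfbp6 23.1-fold (11.02 to 58.2), at 1.91 (1.66 to 2.18). Igfbp5 was found in both kinds of member, 5.29 in collagen-bearing and 7.89 in Dcn-only ones, and Igfbp3 was lower than in endothelial barcodes, 0.824 against 6.13. All 6 had a UMI. In this list 4 of 6 genes were called over endothelial and 2 of 6 over mural barcodes, and 3 of 5 and 3 of 6 in the collagen-bearing members. Median log2 ratios over all members stood at 2.53 and 0.97.

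Growth factor receptors were measured with 17 genes, all with a UMI. As for calls, 4 of 15 genes passed against endothelial and 3 of 13 against mural barcodes, where the median log2 ratios were 0.77 and 0.85. Among collagen-bearing members 5 of 15 and 3 of 13 passed. Axl, a receptor of Gas6, stood at 1.05 (0.867 to 1.26), 17.8-fold (7.40 to 55.7) over endothelial barcodes. Fgfr1, an FGF receptor, was at 1.06 (0.875 to 1.27) and 4.98-fold (3.02 to 8.69) higher. The TGF-beta co-receptor Tgfbr3 was at 1.10 (0.916 to 1.31), Tgfbr2 at 1.04 (0.859 to 1.25), the LIF receptor Lifr at 1.02 (0.843 to 1.23) and Igf1r at 0.744 (0.592 to 0.922), and none of these 4 was called against endothelial barcodes in all members. In the collagen-bearing members Tgfbr3 was called, at 1.42 (1.15 to 1.74), 4.02-fold (2.64 to 6.29) over endothelial barcodes.

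In the WNT family the leading gene was Rspo3, an R-spondin that strengthens WNT signals to neighbouring cells, at 1.84 (1.59 to 2.11) in all and 3.02 (2.61 to 3.46) in collagen-bearing members. It was 31.1-fold (13.1 to 96.9) over endothelial barcodes and at least 16.0-fold over mural barcodes. Rspo1 was lower at 0.340 (0.241 to 0.467). Secreted WNT antagonists were below Rspo3 as well. Sfrp1 stood at 0.421 (0.309 to 0.560), Sfrp2 at 0.394 (0.286 to 0.529) and Sfrp4 at 0.188 (0.116 to 0.288). Of the WNT ligands, Wnt4 was at 0.457 (0.340 to 0.601), near its 0.354 in endothelial and 0.290 in lymphoid barcodes. Of its 51 UMIs, 20 lay in collagen-bearing members, 16 of them in subgroup 5. Wnt5a was at 0.278 (0.189 to 0.394) with 0 UMIs in endothelial, mural and lymphoid barcodes. Of 22 genes, 16 had a UMI, with Wnt2b, Wnt16, Rspo2, Sfrp5, Dkk1 and Dkk2 at 0. Higher than in endothelial barcodes by the rule were 6 of 8 genes, and than in mural barcodes 3 of 9, with 6 of 7 and 4 of 9 in the collagen-bearing members. The log2 ratios of all members had medians of 3.12 and 1.28.

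TGF-beta and BMP genes were led by secreted binding proteins. Fst, or follistatin, which traps activins, stood at 2.60 (2.31 to 2.92) in all and 4.27 (3.79 to 4.802) in collagen-bearing members, at least 73.4-fold over endothelial barcodes. Fstl1 was at 1.88 (1.64 to 2.15) and the BMP antagonist Nbl1 at 1.31 (1.10 to 1.54). Of the ligands, Bmp4 was at 0.815 (0.656 to 1.00), 23.0-fold (7.63 to 114) over endothelial barcodes, Gdf10 at 0.573 (0.442 to 0.732) and Tgfb2 at 1.14 (0.949 to 1.35). The antagonist Grem1 was at 0 UMIs. Of 19 genes, 18 had a UMI. Against endothelial barcodes 6 of 12 of the list's genes were called, and against mural barcodes 3 of 11, at median log2 ratios of 1.94 and 0.34. The collagen-bearing members alone gave 6 of 10 and 4 of 11.

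Hedgehog pathway genes were sparse: 7 of 9 had a UMI, Shh and Ihh were at 0, and the most abundant, the signal transducer Smo, stood at 0.421 (0.309 to 0.560). The transcription factor Gli3 was at 0.206 (0.131 to 0.309) with 0 UMIs in endothelial barcodes. The list had 1 of 3 genes called against endothelial and 0 of 3 against mural barcodes, and its median log2 ratios were 1.70 and 0.85. Without the Dcn-only members 1 of 3 and 0 of 3 were called.

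Chemokines, which guide white blood cells, were abundant. Cxcl14 stood at 22.0 (21.2 to 22.9) in all and 37.1 (35.7 to 38.6) in collagen-bearing members, against 0.197 (0.0902 to 0.375) in Dcn-only ones. It was 622-fold (213 to 3018) over endothelial and at least 192-fold over mural barcodes. A Cxcl14 UMI was found in 89.3% (84.9 to 92.8) of collagen-bearing members and 0.414% (0.0854 to 1.20) of lymphoid barcodes, and at 1000 UMIs in 82.8% and 0%. Ccl11, or eotaxin, stood at 5.73 (5.30 to 6.20), and 24.3-fold (15.6 to 40.0) over endothelial barcodes. Cxcl12, which holds lymphocytes and stem cells in niches, was at 3.26 (2.93 to 3.61), below its 7.52 in endothelial barcodes. The neutrophil chemokine Cxcl1 was at 2.80 (2.49 to 3.12) and the interferon-induced Cxcl10 at 1.58 (1.35 to 1.83). Cxcl2, which also draws neutrophils, was at 1.69 (1.46 to 1.95), with a UMI in 5.03% (2.90 to 8.04) of members and in 2.48% (1.48 to 3.90) of lymphoid barcodes. Of its 189 UMIs, 185 lay in subgroup 3 of the members, described below, and 139 of them in 3 collagen-bearing barcodes there. The 6 collagen-bearing barcodes of that subgroup also held 457 of the 526 myeloid marker UMIs found in the 261, and the part of those markers in the Cxcl2 level was not tested. Of 17 genes, 15 had a UMI, and Cxcl5 and Ccl21a were at 0. Called genes numbered 6 of 13 over endothelial and 7 of 12 over mural barcodes, with median log2 ratios of 1.93 and 2.47. For the collagen-bearing members they numbered 6 of 13 and 7 of 12.

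Cytokine and stromal immune genes were led by the adhesion molecule Icam1 at 2.45 (2.17 to 2.76), which stood at 4.93 (4.31 to 5.62) in Dcn-only and 0.742 (0.549 to 0.982) in collagen-bearing members. In the latter the most abundant was Il33, an alarm cytokine of barrier tissues, at 2.15 (1.81 to 2.54). It was 182-fold (32.2 to 7251) over endothelial barcodes in those members. Surface proteins of stroma were low. Pdpn, or podoplanin, was at 0.493 (0.371 to 0.641), the adhesion molecule Vcam1 at 0.582 (0.449 to 0.742) and endosialin (Cd248) at 0.681 (0.536 to 0.852). Kitl, the gene of stem cell factor, was at 0.520 (0.395 to 0.672). Kitl was below its 2.71 in endothelial barcodes, and Il7 was at 0 UMIs. Over all members 18 of 19 genes had a UMI. In this list 4 of 13 genes were called over endothelial and 4 of 12 over mural barcodes, and 5 of 12 and 4 of 12 in the collagen-bearing members. Median log2 ratios over all members stood at 1.38 and 1.20.

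Complement genes formed a group that lay almost wholly in the collagen-bearing members. They summed to 31.2 (29.9 to 32.6) there and 0.702 (0.480 to 0.990) in Dcn-only members, beside 0.838 in endothelial, 3.28 in mural and 0.264 in lymphoid barcodes. The central component C3 stood at 5.06 (4.53 to 5.63) with 0 UMIs in endothelial and mural barcodes (at least 85.8-fold and at least 26.5-fold in all members). C1s1 and C1ra, the proteases of the classical pathway, were at 6.14 (5.55 to 6.76) and 3.14 (2.72 to 3.59). Their inhibitor Serping1 was at 8.52 (7.83 to 9.25). C2 was at 1.15 (0.907 to 1.44), and C1rb, C6, C7, Cfd and Cfi were at 0. Over all members, 13 of 18 had a UMI. As for calls, 8 of 10 genes passed against endothelial and 5 of 10 against mural barcodes, where the median log2 ratios were 4.25 and 1.90. Among collagen-bearing members 8 of 10 and 7 of 10 passed.

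Transcription factors of mesenchyme included abundant genes that were lower than in endothelium. Klf4, a stress-responsive zinc finger factor, stood at 4.69 (4.29 to 5.11) in members and 7.15 in endothelial barcodes. Nfib, of the nuclear factor I family, was at 4.66 (4.27 to 5.08) against 6.87, and Tcf4, which binds E-boxes, at 4.32 (3.94 to 4.72) against 6.29. Ebf1, a factor of B cells, fat and stroma, was at 2.24 (1.97 to 2.54) against 3.32. In the collagen-bearing members Klf4 and Nfib were still lower, at 6.17 (5.58 to 6.80) and 4.36 (3.87 to 4.90). Tcf4 was about equal to endothelium there, at 6.26 (5.67 to 6.89), and Ebf1 was at 3.79 (3.33 to 4.29). Nfix was at 4.18 (3.81 to 4.58) and 4.22-fold (3.34 to 5.39) over endothelial barcodes in all members. In the collagen-bearing members it was at 3.24 (2.82 to 3.71), 3.27-fold (2.53 to 4.26) higher, and no longer called against endothelial or mural barcodes. Prrx1, a factor of limb and craniofacial mesenchyme, stood at 2.14 (1.80 to 2.52) in collagen-bearing members, 25.9-fold (12.2 to 65.5) over endothelial barcodes. Factors of the developing jaw and mouth were named by role. Barx1 was at 2.12 (1.78 to 2.50) in those members, Pitx1 at 0.682 (0.497 to 0.912) and Msx1 at 0.621 (0.446 to 0.843). Of 108 Pitx1 UMIs in all members, 45 lay in collagen-bearing ones. Of these 45, 21 lay in 14 members of subgroup 5, which also held luminal epithelial markers. Dlx1, Dlx2 and Lhx8 had 7, 2 and 4 UMIs in all members. Barx1 stood at 1.72 in mural barcodes, near its level in the collagen-bearing members. Of 45 genes, 39 had a UMI, with Tcf21, Foxd1, Msx2, Dlx5, Dlx6 and Pax3 at 0. Higher than in endothelial barcodes by the rule were 8 of 29 genes, and than in mural barcodes 3 of 27, with 9 of 28 and 2 of 27 in the collagen-bearing members. The log2 ratios of all members had medians of 1.28 and 0.29.

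Hox genes, which give trunk and limb fibroblasts their position and are silent in most of the face, were near 0: 3 of 38 had a UMI, and together they reached 0.0538 (0.0197 to 0.117) in members, led by Hoxd8. Endothelial barcodes, with a sum of 0.437, had more, and 0 of 1 tested gene was called against them. In collagen-bearing members it was 0 of 1, and no Hox gene reached 10 UMIs in members and mural barcodes together. A gene with 0 UMIs in members may still stand at up to 0.0331 UMIs per 10000, the upper end of its exact Poisson interval.

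Nuclear hormone receptors, which turn steroid, thyroid and retinoid signals into transcription, had no gene called in all members. The glucocorticoid receptor Nr3c1 stood at 1.52 (1.30 to 1.77) and the thyroid hormone receptor Thra at 1.04 (0.859 to 1.25). The retinoid receptors were low, with Rarg at 0.305 (0.211 to 0.426), Rxra at 0.287 (0.196 to 0.405) and Rara at 0.251 (0.167 to 0.363). Rarb was lower, with 8 UMIs. Of 14 genes, 13 had a UMI and Esr2 was at 0. Against endothelial barcodes 0 of 11 of the list's genes were called, and against mural barcodes 0 of 10, at median log2 ratios of 0.60 and 0.23. The collagen-bearing members alone gave 2 of 11 and 1 of 8.

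Lipid and retinoid genes summed to 48.0 (46.7 to 49.3) in all and 66.5 (64.5 to 68.5) in collagen-bearing members, with 56.0 in endothelial barcodes between them. Apod, an apolipoprotein, stood at 17.9 (16.9 to 18.9) in the collagen-bearing ones and was 150.4-fold (68.9 to 411) over endothelial and at least 93.0-fold over mural barcodes in all members. Lpl, the lipase that releases fatty acids from lipoproteins, was at 12.3 (11.5 to 13.2) and 69.2-fold (36.3 to 152) over endothelial barcodes in all members. Crabp1, which binds retinoic acid, was at 8.27 (7.59 to 8.997) with 0 UMIs in endothelial, mural and lymphoid barcodes. Apoe was at 13.3 (12.7 to 14.0) and Dbi at 3.36 (3.03 to 3.72). All 18 genes had a UMI. The list had 7 of 14 genes called against endothelial and 5 of 14 against mural barcodes, and its median log2 ratios were 2.07 and 1.53. Without the Dcn-only members 7 of 14 and 6 of 14 were called.

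The most abundant named transcript outside Malat1, a nuclear noncoding RNA at 175 UMIs per 10000, was Gsn. It encodes gelsolin, which cuts actin filaments and also circulates in plasma. Gsn stood at 109 (107 to 111) in all and 182 (179 to 186) in collagen-bearing members against 2.70 (2.24 to 3.22) in Dcn-only ones, and was 318-fold (221 to 475) over endothelial and 33.2-fold (26.8 to 41.5) over mural barcodes. A Gsn UMI was found in 100% (98.6 to 100) of collagen-bearing, 38.6% (26.0 to 52.4) of Dcn-only and 4.28% (2.92 to 6.01) of lymphoid barcodes. Thinned, the shares were 99.2%, 7.02% and 1.38%. The metallothioneins Mt1 and Mt2, which bind zinc and copper, were at 51.9 (50.6 to 53.3) and 8.12 (7.60 to 8.66). They were 8.98-fold (8.19 to 9.87) and 11.9-fold (9.09 to 15.7) over endothelial barcodes. The ferritin genes Fth1 and Ftl1 were at 39.5 (38.3 to 40.7) and 18.6 (17.8 to 19.5) and the peroxiredoxin Prdx1 at 7.18 (6.69 to 7.69). All 16 redox and metal genes had a UMI. Called genes numbered 8 of 16 over endothelial and 6 of 16 over mural barcodes, with median log2 ratios of 2.03 and 1.04. For the collagen-bearing members they numbered 7 of 15 and 5 of 15.

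Surface genes summed to 42.2 (41.0 to 43.4) in all members and 59.0 (57.1 to 60.9) in the collagen-bearing ones, against 68.3 in endothelial barcodes. The tetraspanin Cd81 stood at 11.8 (11.2 to 12.5) and Ly6a, or Sca-1, at 6.53 (6.07 to 7.02), below its 19.7 in endothelial barcodes. Lrp1, an endocytic receptor for proteases and matrix, was at 4.24 (3.86 to 4.64) and 27.6-fold (16.0 to 52.3) over endothelial barcodes. Entpd2, which breaks down extracellular ATP, was at 2.36 (2.08 to 2.66), 49.9-fold (19.3 to 185) over endothelial and at least 20.6-fold over mural barcodes. Cd9 was at 5.46 (5.03 to 5.91), Itgb1 at 2.16 (1.90 to 2.45) and Thy1, taken by its role, at 0.717 (0.568 to 0.892). Cd44, a hyaluronan receptor, was low in members: 27 UMIs gave 0.242 (0.159 to 0.352), with 0.273 (0.162 to 0.431) in collagen-bearing members. Cd44 had a UMI in 7.86% (5.15 to 11.4) of members and 9.66% (7.60 to 12.0) of lymphoid barcodes, 3.14% and 4.69% when thinned. Lymphocytes make Cd44 themselves. Of 24 genes, 23 had a UMI and Cdh2 was at 0. In this list 9 of 21 genes were called over endothelial and 6 of 20 over mural barcodes, and 9 of 20 and 7 of 20 in the collagen-bearing members. Median log2 ratios over all members stood at 1.80 and 1.23.

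Of the contractile and myofibroblast genes, 4 of smooth muscle were at or near 0 in the collagen-bearing members. Acta2, smooth muscle actin, had 1 UMI there, a level of 0.0152 (0.000384 to 0.0844), and Tagln, Myh11 and Cnn1 had 0. In mural barcodes Acta2 stood at 80.5 (77.1 to 84.0) and Tagln at 56.0 (53.1 to 58.9). In Dcn-only members Acta2 was at 0.921 (0.664 to 1.24), and 1 barcode held 14 of the 43 Acta2 UMIs of all members. The sum over the list, 62.8 (61.4 to 64.3) in all members and 81.4 (79.3 to 83.6) in the collagen-bearing ones beside 337 in mural barcodes, came mostly from genes of wider use: the calcium-binding S100a6 at 33.8 (32.8 to 34.9), the myosin light chain Myl6 at 9.43 (8.87 to 10.0), the galectin Lgals1 at 7.84 (7.33 to 8.38) and the intermediate filament Vim at 3.93 (3.57 to 4.32). Tpm1 and Tpm4 were at 2.45 (2.17 to 2.76) and 1.80 (1.56 to 2.07). S100a6 was 14.2-fold (12.3 to 16.4) over endothelial and 4.62-fold (3.99 to 5.37) over mural barcodes. Of 18 genes, 17 had a UMI and Actg2 was at 0. As for calls, 2 of 15 genes passed against endothelial and 1 of 18 against mural barcodes, where the median log2 ratios were -0.09 and -4.29. Among collagen-bearing members 2 of 15 and 1 of 18 passed.

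Immediate early and heat shock genes, which respond within minutes to stimuli that include tissue digestion, were high: 351 (348 to 355) in all members and 378 (373 to 383) in the collagen-bearing ones. They summed to 248 in endothelial, 282 in mural and 86.0 in lymphoid barcodes. Fos, which pairs with Jun as the factor AP-1, led at 46.3 (45.0 to 47.6), followed by Jun at 37.8 (36.7 to 39.0). Their relatives Junb and Jund were at 26.3 (25.3 to 27.3) and 24.8 (23.9 to 25.8), and the zinc finger factor Egr1 at 24.7 (23.8 to 25.7). Atf3 was at 44.6 (42.7 to 46.6) in Dcn-only and 10.7 (9.97 to 11.6) in collagen-bearing members. All 23 genes had a UMI. Higher than in endothelial barcodes by the rule were 2 of 23 genes, and than in mural barcodes 0 of 23, with 1 of 23 and 1 of 23 in the collagen-bearing members. The log2 ratios of all members had medians of 0.60 and 0.34. Those shares are near or below the share called over all genes. Response to digestion and the state of the cells in the gland cannot be told apart in these samples.

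Cell cycle genes were sparse and lay mostly in Dcn-only members, 5.37 (4.72 to 6.09) against 0.970 (0.747 to 1.24) in the collagen-bearing and 5.34 in lymphoid barcodes. Pcna, a replication clamp, led with 90 UMIs at 0.806 (0.648 to 0.991), and Mki67 had 0 UMIs in the collagen-bearing members. Ube2c had 0 UMIs there and Top2a 2. Across all members, the barcode highest for each gene held 18 of 30 UMIs of Ube2c, 9 of 29 of Pclaf and 5 of 90 of Pcna. All 15 genes had a UMI in some member. Against endothelial barcodes 2 of 13 of the list's genes were called, and against mural barcodes 1 of 12, at median log2 ratios of 1.19 and 0.56. The collagen-bearing members alone gave 0 of 4 and 0 of 1.

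The 19 nerve-sheath and tendon fibroblast genes gave 10.4 (9.78 to 10.98), of which Ccl11 was the most abundant. Of them 15 had a UMI, and Shisa3, Tnmd, Thbs4 and Chodl were at 0. The list had 5 of 11 genes called against endothelial and 2 of 11 against mural barcodes, and its median log2 ratios were 1.82 and 0.63. Without the Dcn-only members 5 of 10 and 1 of 9 were called. Sox9, a cartilage and tendon factor that epithelium also uses, stood at 3.99 (3.43 to 4.61) in Dcn-only and 1.08 (0.840 to 1.36) in collagen-bearing members.

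Ranked by ratio to all other barcodes among genes with at least 50 UMIs, the first 20 genes of all members were Mfap4, Podn, Col6a6, Crabp1, Fbln7, Cpxm1, Mrc2, Pi16, Gpx3, Col1a2, Srpx, Ms4a4d, Dcn, Col3a1, Htra3, Lum, Col6a3, Apod, Mfap5 and Tspan11. The same 20 genes came first in the collagen-bearing members. Mfap4, a microfibril protein, led with a level of 0.726 (0.576 to 0.902), 1771-fold (728 to 5601) over all others, and Podn, a small leucine-rich proteoglycan, followed with 1603-fold (708 to 4487). Mrc2, a receptor that takes up collagen, stood at 0.833 (0.673 to 1.02), 1129.7-fold (570.1 to 2548) higher. Gpx3, a secreted glutathione peroxidase, was at 2.47 (2.19 to 2.78) and Col6a6, a further type VI chain, at 0.753 (0.600 to 0.932). Of the 20, 3 (Col1a2, Col3a1 and Dcn) were selecting genes. By abundance, the first 10 genes of all members were Malat1, Gsn, Dcn, Mt1, Fos, Fth1, Jun, S100a6, Actb and Fau.

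Of the 5 fibroblast markers 4 were selecting genes, so their detection and the sum of 117 (115 to 119) in all members, led by Dcn, follow from the selection. Only Pdgfra, given above, played no part in it. Markers of other cells were checked as whole lists. The 10 endothelial markers summed to 0.134 (0.0752 to 0.222) in members against 72.5 in endothelial barcodes, with 7 of 10 detected, Kdr highest and Pecam1, Esam and Cldn5 at 0. Cdh5 and Kdr were limited by the selection. The 12 mural markers summed to 3.94 (3.48 to 4.45) in collagen-bearing members against 64.2 in mural barcodes, led by Ndufa4l2, with Myh11 and Cnn1 at 0. In 27 of 318 members the 8 genes of the mural selection reached 3 UMIs. The 9 lymphoid markers were near 0, at 0.457 (0.340 to 0.601) with Ccl5 highest and Cd3d and Cd3e at 0, beside 68.4 in lymphoid barcodes. Ptprc was held at 0 by the selection. Of 10 myeloid markers 9 were detected, with Adgre1 at 0, at 7.11 (6.63 to 7.63) and led by Cd74. The 8 Schwann markers reached 1.93 (1.68 to 2.20), 7 detected, with the widely expressed Pmp22 highest.

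Adipocyte markers were at 0.0179 (0.00217 to 0.0647), with 1 of 6 detected (Pparg) and Adipoq, Plin1, Cidec, Lep and Retn at 0. The 5 mesothelial markers gave 0.0627 (0.0252 to 0.129), with 3 detected, Msln highest and Upk3b and Wt1 at 0, and the 5 erythroid markers 0.0717 (0.0309 to 0.141), with 2 detected, Hbb-bs highest and Hba-a1, Hbb-bt and Alas2 at 0. Those lists were thus near 0 in members. Acinar transcripts were not: the 10 serous markers, all detected and led by Mucl2, summed to 923 (917 to 928) in all and 1268 (1259 to 1277) in collagen-bearing members, beside 1269 in lymphoid barcodes. In subgroups 2, 5 and 6 the serous sum was 1540.1, 1626 and 1413, and without the barcode that held the most of it in each, 1461, 1085 and 1252. The 7 mucous or Dcpp markers, all detected and led by Dcpp3, summed to 169 (167 to 172) in members and 676 in lymphoid barcodes, and 1 member held 7085 of their 18902 UMIs. The 37 abundant secretory products of the glands, 20 of them detected and led by Mucl2, summed to 1235 (1229 to 1242) in members and 2072 in lymphoid barcodes. Mucl2 was limited by the selection, which bears on the serous and secretory sums. Whether the epithelial transcripts of the Dcn-only members came from the same cell as their Dcn was not tested.

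Members were also divided by their overall expression into 6 subgroups, numbered by size, with the selecting, secretory and mitochondrial genes left out. Genes that define a subgroup describe it and are no result about it. Subgroups 1, 2, 4, 5 and 6 held 255 of the 261 collagen-bearing members and 2 of the 57 Dcn-only ones. Subgroup 3, of 61 barcodes, held 55 Dcn-only and 6 collagen-bearing members, with Pdgfra in 2 of 61 and a median depth of 6475 UMIs. It was led by Krt14, Lgals7, Ucma, Dapl1, Ptn, Ly6d, Moxd1, Esp18, Sfn and Krt5. Its luminal epithelial markers summed to 75.2 (72.8 to 77.7), and its myeloid markers to 14.4 (13.3 to 15.5). Of the latter's 679 UMIs, the 6 collagen-bearing members held 457, and the 55 Dcn-only members 222 with a median of 0. The part of either list in the subgroup was not tested.

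Subgroups 1, 2 and 4 held 95, 71 and 52 barcodes, with Pdgfra in 65, 49 and 33 of them. Fibrillar collagens summed to 79.2 (75.5 to 83.1), 88.6 (83.7 to 93.6) and 87.8 (82.8 to 93.0), and small leucine-rich proteoglycans to 181 (175 to 186), 188 (181 to 195) and 177 (169.9 to 184). Matrix glycoproteins differed more, with 65.9 (62.5 to 69.4) in subgroup 1, 81.4 (76.8 to 86.3) in subgroup 2 and 88.4 (83.4 to 93.6) in subgroup 4, and other collagens were at 63.3 (59.9 to 66.7), 73.7 (69.3 to 78.4) and 66.9 (62.5 to 71.5). Immediate early and heat shock genes stood at 543 (533 to 553) in subgroup 1, 173 (166 to 180.1) in subgroup 2 and 455 (444 to 467) in subgroup 4. Mt1 followed them, with 96.9 (92.8 to 101), 27.1 (24.4 to 29.9) and 84.0 (79.1 to 89.2).

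The genes that led subgroup 1 included Gm13889, Rgs16, Myoc, Mbd1, Msn, Fgl2, Klf2, Arhgap20 and Socs1. Klf2, a factor induced by flow and stimuli, stood at 26.1 (24.0 to 28.4) there and 6.19 (4.95 to 7.64) in subgroup 2. Subgroup 2, the shallowest with a median of 1837 UMIs, was led by Kcnk2, Tgfbi, Bmp4, P2ry1, Sept4, Prrx2, Lamb1, Vwa1, Lama2 and Ndufa4l2, which include basement membrane genes. Subgroup 4 was led by Mup4, Dcpp1, Tppp3, Serpine2, Tnfaip6, Iigp1, Ifi204, Dcpp2, Loxl2 and Ccl7. Mup4 came from 1 barcode and Ccl7 from 9 of 52. Dcpp1 and Dcpp2 came mostly from 1 barcode, with 2051 of 2287 and 2095 of 2476 UMIs. Without it they stood at 19.9 (17.5 to 22.6) and 32.2 (29.0 to 35.6), near the 16.5 and 34.8 of all other members. The mucous or Dcpp markers summed to 635 (622 to 649) in subgroup 4, of which 1 barcode held 7085 of 8330 UMIs. Without the barcode highest for them in each, subgroups 4 and 1 were at 105 (99.4 to 111) and 105 (101 to 109).

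Subgroup 5, of 22 barcodes with Pdgfra in 18, was led by Klk1b16, Egf, Foxi1, Klk1b22, Klk1b21, Klk1b8, Hepacam2, Klk1b26, Stap1 and Slc4a11. Kallikreins and Egf are secretory products of granular ducts, and Foxi1 is the factor of ionocytes. Klk1b16 came from 7 of 22 barcodes, Egf from 5 and Foxi1 from 9. For each of the 5 kallikreins and for Egf 1 barcode held most UMIs, as 128 of 136 for Klk1b16, 606 of 700 for Klk1b26 and 56 of 65 for Egf. Without the barcode highest for each they stood at 0.690 (0.298 to 1.36), 8.10 (6.55 to 9.92) and 0.776 (0.355 to 1.47), against 0.0706, 1.02 and 0.0504 in all other members. Foxi1 was spread more evenly, with at most 5 of its 23 UMIs in a barcode. These barcodes had a median of 5585.5 UMIs and 8.45% mitochondrial UMIs, and their luminal epithelial markers summed to 36.7 (33.5 to 40.3), with a median of 16.0 UMIs, against 2.62 (1.98 to 3.41) in subgroup 1. Fibrillar collagens were lower at 25.6 (22.9 to 28.6). Whether they hold RNA of more than 1 cell was not tested, and no doublet caller was run.

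Subgroup 6 stood apart in some matrix genes. Its 17 barcodes, all collagen-bearing, had a median of 2110 UMIs, beside 2089 in subgroup 1 and 2188 in subgroup 4, and Pdgfra in 2 of 17 (11.8%, 1.46 to 36.4). Sfrp4, Pi16, Mfap4, Pdgfrl, Sfrp2, Igfbp6, Eln, Fbln1, Gdf10 and Podn led it. Of these, Sfrp2 and Sfrp4 leaned most on 1 barcode, with 13 of 22 and 9 of 21 UMIs. Pi16, a peptidase inhibitor of vessel-sheath fibroblasts, stood at 28.0 (22.8 to 33.9) there and at 0.234 (0.0761 to 0.547) in subgroup 1. Col1a2 and Col3a1 reached 83.1 (74.0 to 93.0) and 87.2 (77.9 to 97.3), beside 33.6 (31.1 to 36.1) and 26.5 (24.3 to 28.8) in subgroup 1. Dcn was lower, 88.3 (78.9 to 98.5) beside 124 (119.7 to 129). Other collagens were lower too, at 46.6 (39.9 to 54.2) beside 63.3 in subgroup 1. Small leucine-rich proteoglycans stood at 171 (158 to 185) beside 181. Of the basement membrane, Col4a1, Hspg2, Nid1 and Lamb1 had 6, 3, 8 and 3 UMIs in subgroup 6.

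Other genes were low in subgroup 6. Cxcl14 was at 0.822 (0.170 to 2.40) against 47.9 (45.0 to 50.9) in subgroup 1, and Crabp1 and Rspo3 had 0 UMIs there against 12.7 (11.2 to 14.3) and 4.41 (3.56 to 5.39). Igf1 was higher, 9.32 (6.45 to 13.0) against 3.19 (2.47 to 4.04). Of the 5 subgroups that are mainly collagen-bearing, the one with the most type I and III collagen thus had the lowest Pdgfra and Cxcl14. Type I and III collagen took part in the selection, so this order is a description. In subgroup 6, Col1a1, Col1a2 and Col3a1 held 100, 303 and 318 of 765 fibrillar collagen UMIs. Col5a1, Col5a2 and Col5a3, outside the selection, held 14, 21 and 8. In subgroup 2 these 3 type V chains held 33, 100 and 72 of 1231.

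The lists for 2 known kinds of fibroblast were summed by subgroup. The 20 adventitial (Pi16-type) genes summed to 105 (94.997 to 116) in subgroup 6 and to 25.3, 37.6, 4.92, 48.2 and 11.4 in subgroups 1 to 5. The 18 parenchymal (Col15a1-type) genes summed to 164 (157 to 171) in subgroup 2, 153 (147 to 160.3) in 4, 147 (142 to 152) in 1, 93.2 (83.6 to 104) in 6, 52.0 (48.1 to 56.1) in 5 and 21.3 (19.96 to 22.6) in 3. Elastic fibre genes were at 92.1 (82.5 to 102) in subgroup 6 and at most 29.3 (26.4 to 32.4) in the others. Genes that lead subgroup 6 are part of each of its sums, the parenchymal one included, which are thus a description. Mfap4, Eln and Fbln1 held 60, 55 and 76 of its 336 elastic fibre UMIs. Pi16 and Sfrp4 held 102 and 21 of its 384 adventitial UMIs. Mfap4 and Gdf10 held 60 and 20 of its 340 parenchymal UMIs.

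Over all members the adventitial list stood at 22.0 (21.1 to 22.8), and in the collagen-bearing ones at 34.0 (32.6 to 35.4), both below the 47.2 of endothelial barcodes. Ly6a led it, with Clec3b at 4.45 (4.07 to 4.86), Cd34 at 1.90 (1.65 to 2.17), Pi16 at 1.21 (1.01 to 1.43) and Dpt at 1.20 (1.01 to 1.42). All 20 had a UMI. Called genes numbered 10 of 19 over endothelial and 7 of 18 over mural barcodes, with median log2 ratios of 2.41 and 1.69. For the collagen-bearing members they numbered 11 of 19 and 9 of 17. The parenchymal list stood at 84.4 (82.7 to 86.1), led by Cxcl14, with 17 of 18 detected and Npnt at 0. In this list 10 of 18 genes were called over endothelial and 12 of 17 over mural barcodes, and 11 of 18 and 13 of 17 in the collagen-bearing members. Median log2 ratios over all members stood at 2.43 and 2.66.

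**Figure D3:**
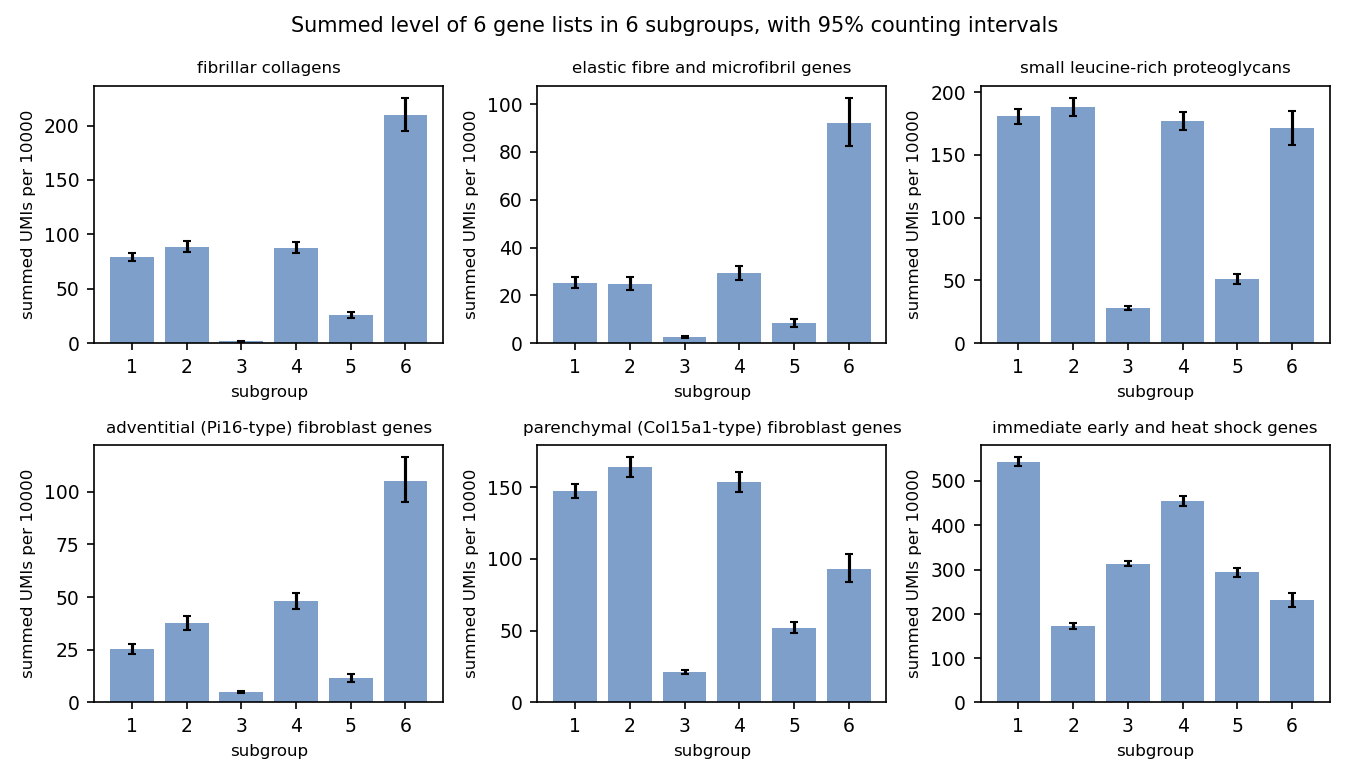
Summed level of 6 gene lists, in UMIs per 10000, in subgroups 1 to 6 of the 318 members (95, 71, 61, 52, 22 and 17 barcodes), as bars from 0 with exact Poisson 95% intervals. Subgroup 6 is highest for elastic fibre genes, adventitial genes and fibrillar collagens, the last mostly from the selecting genes Col1a1, Col1a2 and Col3a1. Subgroup 3 is lowest for all lists but the immediate early one, and subgroup 1 is highest for immediate early and heat shock genes.

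The division held to different degrees when settings changed. At resolutions of 0.3 and 0.8, members of subgroup 6 fell together in 17 of 17 and 16 of 17 cases, those of subgroup 5 in 22 of 22 and 22 of 22, and those of subgroup 3 in 61 of 61 and 38 of 61. With the immediate early and heat shock genes left out of the variable genes, 16 of 17 members of subgroup 6 fell together, and 29 of 52 of subgroup 4 and 46 of 71 of subgroup 2. With 20 principal components 14 of 17 of subgroup 6 did. Subgroups 1 and 4 merged under some settings. At resolution 0.3, 95 of 95 and 40 of 52 of their members fell in the same group of 148, and with 20 principal components 87 of 95 and 42 of 52 in one of 150. When the collagen-bearing members alone were divided, 74 of 94 and 24 of 52 fell in one of 102, and 16 of 17 members of subgroup 6 in one of 35. The line between subgroups 1 and 4 thus depends on the setting.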

How the data were processed

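The values are raw UMI counts, which the authors made with Cell Ranger 6.0.1 from 3′ libraries on genome build mm10 and deposited as 1 matrix of genes by barcodes holding all 4 samples, with no normalization. Gene positions come from GENCODE M21. Members and gene lists were chosen with earlier results of these data known. Members were found by the stated limits on the deposited counts, with no filter on cells. Endothelial, mural and lymphoid barcodes needed at least 5 UMIs of their own marker genes. Levels are UMIs summed over a group per 10000 with exact Poisson intervals, shares carry exact Clopper-Pearson intervals, and ratios carry exact conditional binomial intervals. All 29 gene lists and 13 marker lists are reported.

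Subgroups came from Leiden clustering at resolution 0.5 of log-normalised counts, with 1000 variable genes, 10 principal components and 10 neighbours. Named genes were the selecting genes and Pdgfra, up to 6 of the most abundant members of each list with at least 20 UMIs, list members taken by role, the 20 highest ratios to all other barcodes, the 10 most abundant genes, the 10 leading genes of each subgroup, and Col1a2 and Cd44. The genes that lead the Dcn-only members were chosen after their values were seen.

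Alternatives were other limits on the 4 genes, on Mucl2, on Pdgfra, on genes and mitochondrial UMIs and on mural genes, leaving out the deepest 10% of members in place of a doublet caller, other totals, free RNA taken away, other minimum counts and other clustering settings. Leaving out the Dcn-only members, and those with luminal epithelial UMIs, was chosen after seeing the data. The code was tested on simulated data. Python 3.11.15, numpy 2.4.6, scipy 1.17.1, pandas 2.3.3, scanpy 1.11.5 and matplotlib 3.10.9 were used. No test was run, since the samples could not be told apart in the matrix. The distribution of genes over mice and glands was not analysed here.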

Additional observations from a re-analysis of the deposited data

How the results depend on the processing

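No paired analysis was possible because the 4 samples form 1 group in 1 pooled matrix, and no test was run. The number of members ranged from 169, with at least 1 UMI of Pdgfra required, to 379, with at least 5 UMIs of the 4 genes, against 318. Their median depth of 2215.5 UMIs was 2110 without members that have at most 2 UMIs of type I and III collagen, and 2051.5 when members with at least 3 UMIs of luminal epithelial markers were left out as well. Both sets were chosen after seeing the data. Genes called against endothelial barcodes numbered 490 at a minimum of 30 UMIs, where fewer genes were compared, against 858. Against all other barcodes 1147 were called with the abundant secretory products out of the total and 1884 with free RNA taken away, against 7087. The cause was not tested. Counts against mural barcodes stayed between 377 and 655 under every alternative run, and subgroups numbered from 5 to 8.

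Of the called ratios of named genes, 1630 values under the alternatives stayed within the interval of the reported value, 237 moved and 3 reversed. Those 3 were Pdgfc against endothelial barcodes, 0 without both sets above, and Ptn against mural barcodes, 0.953 without the first set and 0.312 without both. Of the levels, 1009 moved and 806 did not. Leaving out the 57 Dcn-only members, which hold 40.9% of the UMIs, changes the total that each level is divided by. Depth limits genes with few UMIs, since 0 UMIs in all members has an exact upper bound of 0.0331 UMIs per 10000.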

Other observations

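Dcn and the basal keratins were also counted together outside the selection. Of the 132 barcodes of the whole matrix with at least 5 UMIs of Krt5 and Krt14, 93 had at least 3 UMIs of Dcn (70.5%, 61.9 to 78.1) and 49 had at least 10. Only 15 of the 132 had 0 UMIs of Dcn. At least 3 UMIs of type I and III collagen were found in 1 of them. By the limits used, 43 of these 132 barcodes were members. Basal keratins and decorin thus stood together in barcodes that lacked fibrillar collagen, on both sides of the threshold. Whether these barcodes hold 1 cell each was not tested.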
